A study of Mus musculus with 2 samples.

Results

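The splicing factor genes of the mouse were examined for SRCAP at their promoters. They were chosen by name, as the protein-coding genes of the GENCODE vM21 annotation (GRCm38) whose symbols begin with Snrp, Sf3a, Sf3b, Srsf, Prpf or Hnrnp, or with Lsm and a number, which gave 78 of 21951 protein-coding genes. The measurements were 2 lists of CUT&RUN peaks from SYAT mouse embryonic stem cells (mESCs), 1 made with an antibody against GFP and 1 with an antibody against SRCAP. CUT&RUN releases the DNA around an antibody-bound protein with a tethered nuclease. SYAT is a CGR8 line in which YPet-AID, a fluorescent protein derived from GFP joined to an auxin-inducible degron, was knocked into both Srcap alleles and which also expresses OsTir1, so both antibodies were directed at the same fusion protein and both libraries carried every one of these alleles. Routine culture contained auxinole, an inhibitor of OsTir1, at a dose for which the labels and the study's methods give different units, and per the labels each library came from 100000 cells fixed in 0.1% formaldehyde for 5 min. Whether either library was treated is not in the labels. A figure legend of the study names control SYAT cells for its CUT&RUN map of SRCAP, without naming the library. No library of cells without the tag and no control antibody was analysed here, and with 1 library per antibody no difference between the lists has a replicate check.

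Introns are removed from pre-mRNA by the spliceosome, which is built from small nuclear ribonucleoproteins (snRNPs), each a small nuclear RNA with a ring of Sm or LSm proteins and further proteins of its own. SR proteins and heterogeneous nuclear ribonucleoproteins (hnRNPs) bind the pre-mRNA and influence which splice sites are used. SRCAP is the catalytic subunit of the remodeller that exchanges the histone H2A for the variant H2A.Z in nucleosomes beside transcription start sites (TSSs). Splicing factor genes are expressed in nearly every cell type, mostly from CpG-rich promoters.

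A promoter peak was a peak whose midpoint fell between 1000 bp upstream and 500 bp downstream of any annotated TSS of the gene. Each peak carries a deposited score, whose median was 47 in both lists, and the percentile of a score is its rank among all peaks of the same list. The leading splicing factor promoters by this rank belonged to genes of every family but the U1 and U2 snRNP proteins. The stretches below are the parts of these promoters that lay under peaks of both lists and outside annotated exons, up to 160 bases each, for the 9 of the 12 leading genes that had such a stretch. They are shown on the strand of the gene, 5′ to 3′, from GRCm38, and capitals mark the letters of motif words described further on.

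Hnrnpl, chr7:28810512-28810671, plus strand: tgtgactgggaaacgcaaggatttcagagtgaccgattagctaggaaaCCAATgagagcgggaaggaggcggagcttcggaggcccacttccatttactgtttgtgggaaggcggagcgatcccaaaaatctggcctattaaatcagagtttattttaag
Prpf8, chr11:75486620-75486776, plus strand: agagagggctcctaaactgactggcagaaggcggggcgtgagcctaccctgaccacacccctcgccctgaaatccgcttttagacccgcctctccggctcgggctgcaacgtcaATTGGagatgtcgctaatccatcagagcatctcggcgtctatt
Snrpd2, chr7:19149292-19149444, plus strand: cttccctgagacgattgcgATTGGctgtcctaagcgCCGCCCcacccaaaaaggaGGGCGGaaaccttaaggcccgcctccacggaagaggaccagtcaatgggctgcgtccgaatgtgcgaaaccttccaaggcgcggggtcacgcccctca
Lsm4, chr8:70673071-70673230, plus strand: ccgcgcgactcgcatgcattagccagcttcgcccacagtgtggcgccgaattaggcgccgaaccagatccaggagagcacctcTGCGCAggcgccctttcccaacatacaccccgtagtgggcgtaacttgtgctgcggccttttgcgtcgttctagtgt
Hnrnpul2, chr19:8819354-8819400, plus strand: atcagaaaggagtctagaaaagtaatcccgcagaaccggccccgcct
Hnrnpul1, chr7:25754870-25755029, minus strand: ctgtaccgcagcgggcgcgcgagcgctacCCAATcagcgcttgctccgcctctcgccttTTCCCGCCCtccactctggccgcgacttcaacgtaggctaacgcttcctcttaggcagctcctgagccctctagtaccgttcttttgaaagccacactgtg
Hnrnpc, chr14:52104378-52104537, minus strand: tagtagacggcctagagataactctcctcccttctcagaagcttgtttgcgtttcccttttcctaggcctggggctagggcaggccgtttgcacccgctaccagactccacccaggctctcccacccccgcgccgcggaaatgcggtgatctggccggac
Lsm10, chr4:126096473-126096561, plus strand: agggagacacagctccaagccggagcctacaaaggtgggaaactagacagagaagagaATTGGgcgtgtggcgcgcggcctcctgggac
Srsf5, chr12:80945400-80945444, plus strand: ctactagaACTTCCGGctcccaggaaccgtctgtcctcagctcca

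With the GFP antibody, 47 of the 78 splicing factor genes had a promoter peak, which is 60.3% (95% Wilson interval 49.2 to 70.4), and the share of all protein-coding genes was 35.0%. With the SRCAP antibody 51 genes had one, or 65.4% (54.3 to 75.0), beside 35.6% of all coding genes. In both lists 38 genes had one, or 48.7% (37.9 to 59.6), beside 27.0%. All 3 intervals lie above the share of all coding genes. They cover counting error only, since genes are not replicates of a condition.

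At 37 genes, or 47.4%, promoter peaks of the 2 lists overlapped, beside 25.6% of all coding genes. The exception among the genes in both lists was Lsm5, whose peaks lay apart. At least 1 list held a promoter peak for 60 genes, or 76.9% (66.4 to 84.9), beside 43.6%. The GFP list alone held one for 9 genes, or 11.5% (6.19 to 20.5), beside 7.98%, and the SRCAP list alone for 13 genes, or 16.7% (10.0 to 26.5), beside 8.63%. The remaining 18 genes had none.

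Splicing factor genes had a median of 5 annotated TSSs, all coding genes a median of 3, and their summed promoter windows had medians of 3400 and 3002 bp. The count was therefore repeated at 1 main TSS per gene, the start of the best supported coding transcript. It gave 41 genes in the GFP list, or 52.6% (41.6 to 63.3), beside 30.0% of all coding genes, and 47 in the SRCAP list, or 60.3% (49.2 to 70.4), beside 30.8%. Both lists held 35 genes at the main TSS, or 44.9% (34.3 to 55.9), beside 22.9%. The intervals again lie above the shares of all coding genes.

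The splicing factor promoters were nearly all CpG-rich, and this accompanied the higher counts. In 500 bp centred on the main TSS, 73 of 78 genes, or 93.6% (85.9 to 97.2), had at least 50% GC and an observed to expected CpG ratio of at least 0.6, beside 49.8% of all coding genes. The median ratio was 0.912 for splicing factor genes and 0.613 for all coding genes. Counted at the main TSS within CpG-rich genes, 40 of 73 splicing factor genes had a GFP peak, or 54.8% (43.4 to 65.7), beside 47.4% of all CpG-rich coding genes. With the SRCAP antibody 46 of 73 had one, or 63.0% (51.5 to 73.2), beside 48.9%, and in both lists 34 did, or 46.6% (35.6 to 57.9), beside 36.9%. Within this class only the interval of the SRCAP list lies above the share of its background, and the other 2 intervals include it.

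The 5 genes outside the CpG-rich class were Hnrnpa1, Hnrnpm, Sf3b5, Snrpn and Srsf12. Hnrnpa1 missed it by GC content alone, with 49.4% GC and a ratio of 0.999. Hnrnpm had the lowest ratio of all splicing factor genes, 0.132, and its overlapping peaks lay near a TSS other than the main one. The other 3 had no promoter peak in either list.

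Other gene groups of general cell function had shares of the same order. The 117 other genes of the splicing machinery, taken from a list of spliceosome and splicing regulator genes, were listed with a promoter peak by the GFP antibody at 65.0% (56.0 to 73.0), by the SRCAP antibody at 61.5% (52.5 to 69.9) and by both at 50.4% (41.5 to 59.3). Of these 117 genes, 59 were in both lists, 17 in the GFP list only, 13 in the SRCAP list only and 28 in neither. For 78 mitochondrial ribosomal protein genes the shares were 67.9%, 57.7% and 48.7%, and for 68 translation factor genes 57.4%, 50.0% and 39.7%. The intervals of these groups overlap those of the splicing factor genes in each list.

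**Figure D1:**
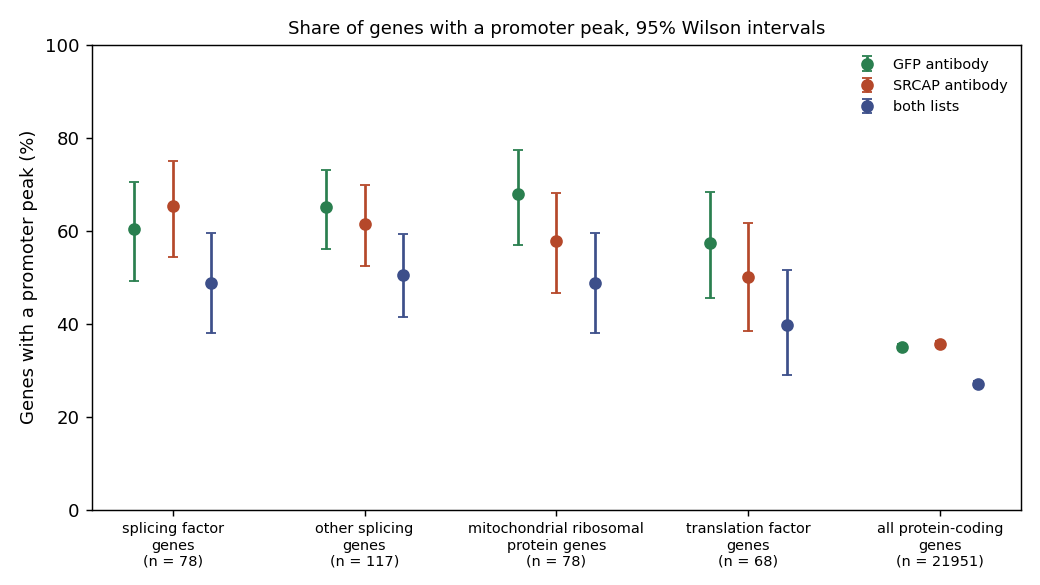
Percentage of genes with a promoter peak (y axis) in the GFP list, the SRCAP list and both, for 5 gene groups (x axis), with points for the share and bars for the 95% Wilson interval. The splicing factor genes sit at 60.3%, 65.4% and 48.7%, above all coding genes and within the intervals of the other splicing genes.

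The families differed in how often both antibodies gave a peak. The SF3A, SF3B and PRPF genes were mostly in both lists, while Sm and SR protein genes were often in 1 list or none. The PRPF genes had 9 of 13 members in both lists and 1 in each list alone, and 6 of 9 SF3A and SF3B genes were in both with none in a single list. For hnRNP genes 12 of 20 were in both. Of SR protein genes 2 of 11 were in both, of Sm genes 2 of 8 and of LSm genes 5 of 13. The share of all coding genes in both lists was 27.0%, and the SR and Sm genes did not stand above it. With 4 to 20 genes in a family these counts are descriptions, and no family was tested against another.

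**Figure D2:**
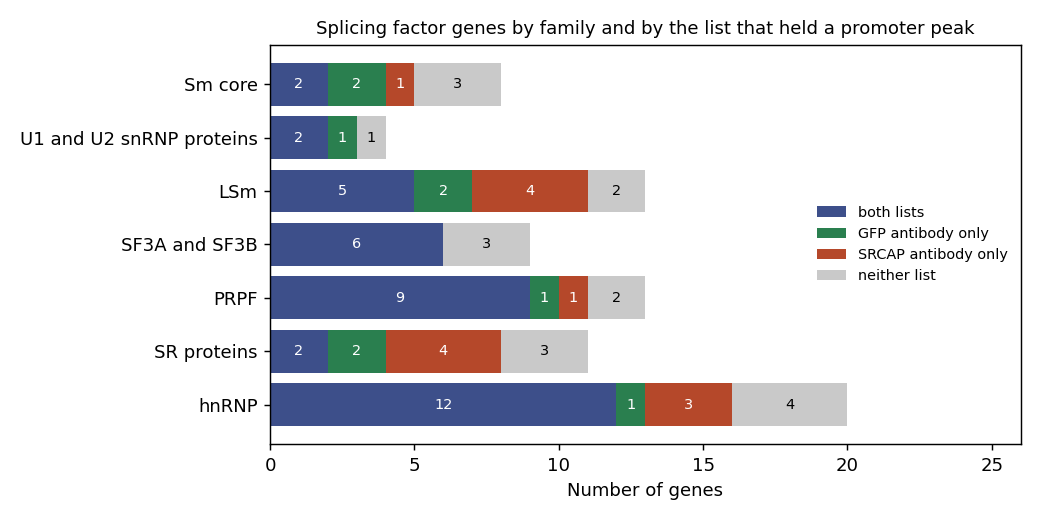
Number of genes (x axis) in each family of splicing factor genes (y axis), divided by whether a promoter peak was in both lists, in 1 list or in neither. PRPF and hnRNP genes fill the bar for both lists with 9 of 13 and 12 of 20 genes, and SR protein genes with 2 of 11. Of all coding genes, not drawn, 27.0% were in both lists.

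The Sm proteins form the ring on the U1, U2, U4 and U5 snRNAs. Among their 8 genes Snrpd2, for SmD2, had peaks of score 142 in the GFP list and 196 in that for SRCAP, at percentiles 94.3 and 97.4. Both peaks reached into the promoter of the neighbouring gene Qpctl, which is transcribed the other way. Snrpe, for SmE, was the only other Sm gene in both lists, with scores of 56 and 94.

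Snrpd1 and Snrpd3, for SmD1 and SmD3, had a peak in the GFP list alone, with scores of 51 and 28, and Snrpg, for SmG, in the SRCAP list alone, with 40. Snrpb, Snrpf and Snrpn had none, and Snrpn encodes an imprinted relative of SmB used mainly in neurons. The nearest peak to Snrpn was a GFP peak of score 51 at 1311 bp upstream of a TSS. Snrpb and Snrpf, whose SmB and SmF proteins belong to the ring in most cell types, had no peak of either list within 10000 bp of a TSS.

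The U1 and U2 snRNPs have proteins of their own that hold their stem loops or the 5′ splice site. Snrpa, for U1-A, had GFP peaks of score 77 and 65, of which the first overlapped the SRCAP peak of score 65. Snrpa1, for U2-A′, scored 54 and 34 in the GFP and SRCAP lists. Snrpc, for U1-C, had only a GFP peak of score 21, and Snrpb2, for U2-B″, had none, its nearest peak being 49455 bp away. Of these 4 genes the 2 with peaks in both lists are the A proteins.

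LSm proteins form the ring of U6 snRNA in the nucleus and a related ring in cytoplasmic mRNA decay, and Lsm10 and Lsm11 belong to the U7 snRNP that processes histone pre-mRNA. Lsm4, which is in both rings, scored 159 and 163, and its GFP and SRCAP peaks of 833 and 906 bp spanned the TSS on both sides. Lsm10 scored 68 and 130, Lsm1 58 and 83, and Lsm14b 40 and 40, the lowest of this family among genes in both lists by mean percentile. Lsm1 specifies the decay ring, and its TSS lay 1 bp from that of Bag4 on the other strand.

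Lsm5 had a GFP peak of score 32 at 323 bp downstream of its TSS and a SRCAP peak of score 89 at 64 bp upstream, with no overlap. The SRCAP list alone held Lsm3, Lsm7, Lsm8 and Lsm11, with a score of 82 for Lsm3 and 47 for each of the others. These 4 peaks lay close to a TSS, between 119 and 5 bp upstream. The GFP list alone held Lsm14a and Lsm6, with scores of 34 and 19, and neither list held Lsm2 or Lsm12. Genes for the U6 ring, Lsm2 to Lsm8, were therefore spread over every outcome.

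SF3A and SF3B are the protein complexes of the U2 snRNP that engage the branch site. Sf3a2 scored 99 and 101, with both midpoints downstream of the TSS, at 227 and 246 bp. Its TSS lay 4 bp from that of Plekhj1, transcribed the other way, so the same peaks fell in both promoters. Sf3a3 scored 57 and 140 and Sf3b2 53 and 128, so both ranked higher in the SRCAP list, at percentiles 93.8 and 92.0, than in the GFP list, at 63.0 and 57.7. Sf3b6 scored 82 and 54 and Sf3b4 65 and 40.

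Sf3b1, the branch site subunit that is often mutated in myeloid neoplasms, had the lowest scores of the family in both lists, 37 and 27. Sf3a1, Sf3b3 and Sf3b5 had no promoter peak. Sf3b5 is a case of annotation: overlapping peaks of score 91 and 105 lay 3063 and 3071 bp downstream of its only GENCODE vM21 TSS, and the RefSeq annotation of the same assembly starts the gene there, at chr10:13008450-13009183. With RefSeq starts, an alternative chosen after seeing the data, Sf3b5 had a promoter peak in both lists.

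PRPF proteins act in the U4/U6.U5 tri-snRNP and in the steps that activate the spliceosome. Prpf8, the scaffold around the catalytic core, scored 194 and 202, at percentiles 97.4 and 97.6, with midpoints 164 and 75 bp upstream of its TSS. Prpf31, a tri-snRNP protein mutated in retinitis pigmentosa, scored 68 and 113 in a promoter shared with Tfpt. The other tri-snRNP genes Prpf3, Prpf4 and Prpf6 scored 60 and 72, 38 and 71, and 64 and 52. All 5 of these genes were in both lists.

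Prpf38a scored 79 in the GFP list and 27 in that for SRCAP. Prpf4b, a kinase, scored 54 and 31, but its best peaks were different ones, the GFP peak at 43 bp downstream and the SRCAP peak at 897 bp upstream, where a weaker GFP peak of score 24 overlapped it. Prpf19, a ubiquitin ligase that activates the spliceosome, was the lowest of the family in both lists by mean percentile, with 29 and 38.

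Prpf18, a factor of the second catalytic step, was in the GFP list alone with a score of 22, and Prpf38b in the SRCAP list alone with 34. Prpf39 and Prpf40b, relatives of yeast U1 snRNP proteins, were in neither.

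SR proteins bind exonic enhancers through RNA recognition motifs and carry domains rich in arginine and serine. Of the 11 genes Srsf5 had the highest score in the GFP list, 114, and scored 62 in that for SRCAP. Srsf3 was the only other SR gene in both lists, with 45 and 34. The Srsf3 peaks overlapped by 204 bp with midpoints 409 bp apart, the largest gap among overlapping pairs. Srsf1, a factor of general and alternative splicing, had a SRCAP peak of score 87 at 31 bp downstream of its TSS, and the nearest GFP peak lay 9749 bp upstream.

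The other genes in the SRCAP list alone were Srsf6, Srsf7 and Srsf10, with 36, 42 and 40. Srsf2 and Srsf11 were in the GFP list alone, with 30 and 14, at 903 and 627 bp upstream of a TSS. Srsf4, Srsf9 and Srsf12 were in neither. SR genes thus had 4 of 11 in the GFP list and 6 of 11 in that for SRCAP, beside 35.0% and 35.6% of all coding genes.

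The hnRNP genes held 5 of the 12 leading promoters. Hnrnpl, which binds CA-rich RNA, had the highest scores of all splicing factor genes in both lists, 390 and 244, at percentiles 99.5 and 98.4, with midpoints 346 and 272 bp upstream of the TSS. Hnrnpul1 scored 215 and 129 and Hnrnpul2 131 and 206, in peaks of 584 to 1005 bp. Hnrnpc, the protein that packages nascent transcripts and binds uridine tracts, scored 164 and 144. The midpoints of all these peaks lay upstream of the TSS, and those of Hnrnpul2 also in the promoter of Ttc9c.

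Hnrnpa1, a repressor of exon inclusion, has the TSS of Cbx5, the gene for the heterochromatin protein HP1α, 616 bp upstream on the other strand, and had 2 peaks in each list. The peak between the starts of the genes scored 218 in the GFP list and 138 in that for SRCAP, at 265 and 291 bp upstream of Hnrnpa1. The peak past the start of Cbx5 scored 43 and 157, at 943 and 980 bp upstream. The order of the 2 peaks was therefore not the same in the 2 lists. Hnrnpa2b1 is arranged in the same way with Cbx3, the gene for HP1γ, 588 bp away, and had a single peak, in the SRCAP list alone, of score 47 at 294 bp upstream.

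The other hnRNP genes in both lists had lower scores. Hnrnpa3 scored 56 and 117 in peaks of 1138 and 1177 bp, among the widest of the splicing factor genes. Those peaks were called only because of a GENCODE TSS, and with RefSeq starts Hnrnpa3 had no promoter peak in either list. Hnrnph1 scored 56 and 75, Hnrnph2 84 and 34, Hnrnpr 29 and 64, Hnrnpu 64 and 35 and Hnrnpm 46 and 23. Hnrnph3 was the lowest of the family by mean percentile, with 41 and 20.

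Hnrnpab and Hnrnpf, with 29 each, were in the SRCAP list alone together with Hnrnpa2b1, and Hnrnpll, a regulator of Cd45 splicing in lymphocytes, was in the GFP list alone with 54. Hnrnpa0, Hnrnpd, Hnrnpdl and Hnrnpk were in neither. Hnrnpdl and Hnrnpd are close relatives that lie on the same chromosome.

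Scores of the best peaks went together in the 2 lists only in part. Over the 38 genes in both lists Spearman's rho of the scores was 0.599 and Pearson's r of their log10 values 0.655, as a description over genes whose peaks come from the same 2 libraries. The best peaks of the 2 lists lay at different sites at Hnrnpa1, Lsm5 and Prpf4b. Matching values over all coding genes in both lists are not given. Of these 38 genes, 20 had the higher percentile in the GFP list. Genes in both lists had median scores of 62 and 71.5 in the GFP and SRCAP lists, and all coding genes in both lists 66 and 69.

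Single-list genes had lower scores. The 9 genes of the GFP list alone ranged from 14 to 54 with a median of 28, at percentile 16.7, beside a median of 38 for all coding genes in that list alone. The 13 genes of the SRCAP list alone ranged from 29 to 87 with a median of 42, beside 40. Of the GFP group 2 genes reached the median score of the list, Hnrnpll and Snrpd1, and of the SRCAP group 6 did. The depth of the libraries is unknown, so a missing peak cannot be told apart from a peak under the calling threshold.

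**Figure D3:**
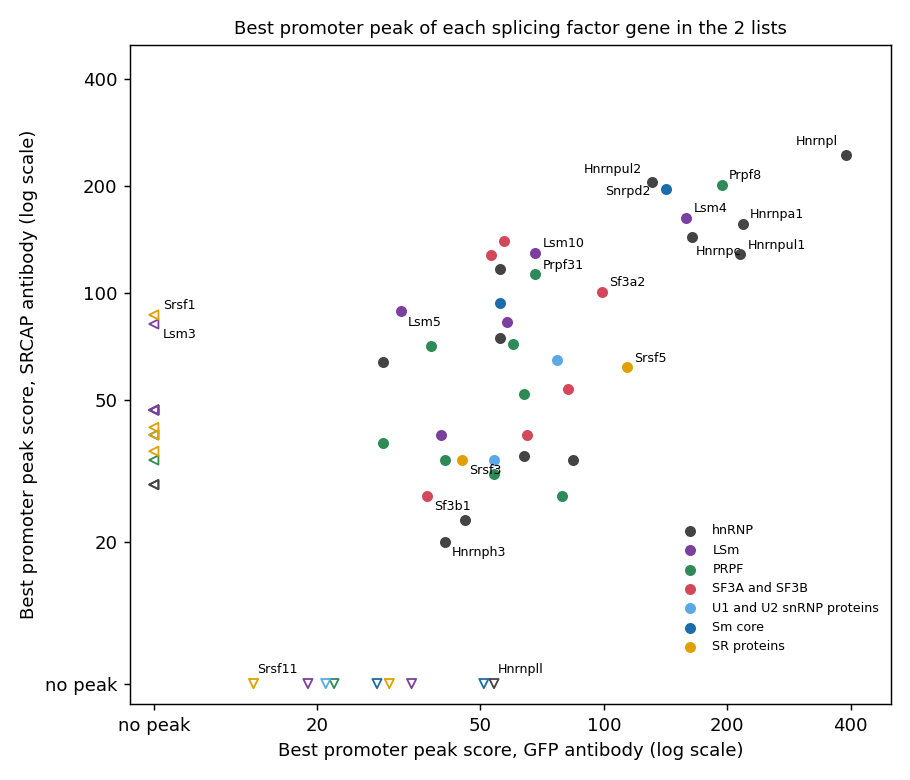
Score of the best promoter peak in the GFP list (x axis, log scale) and in the SRCAP list (y axis, log scale), 1 point per gene, coloured by family, with open triangles on the axes for genes with no peak in the other list. Hnrnpl is highest with 390 and 244, and the 9 genes of the GFP list alone lie at 54 or below.

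Most promoter peaks of the splicing factor genes lay just upstream of a TSS. The 53 GFP peaks had a median midpoint of -153 bp from the nearest TSS (interquartile range -346 to -2) and the 54 SRCAP peaks one of -116 bp (-286 to -36.8). For all coding genes the medians were -128 and -92 bp. Downstream of the TSS lay 24.5% (14.9 to 37.6) of the GFP peaks and 16.7% (9.02 to 28.7) of the SRCAP peaks, beside 28.2% and 28.0% for all coding genes. Both intervals include the shares of all coding genes.

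Their widths and scores were close to those at other promoters. The median widths were 352 and 315 bp, beside 338 and 300 bp for all coding genes, and the median best scores 56 and 54, beside 57 and 60. A peak of the other list overlapped 71.7% of GFP and 70.4% of SRCAP peaks, beside 69.7% and 69.5%. Splicing factor genes were thus listed more often than coding genes in general, with no higher scores where they were listed.

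In the 38 pairs of overlapping peaks, 2 of them at Hnrnpa1, the midpoints were a median of 43 bp apart, with a range of 4 to 409 bp. The GFP peak was the wider one in 18 pairs, and the SRCAP peak lay wholly inside the GFP peak in 7. More than 1 promoter peak was present in the GFP list at 6 genes, Hnrnpa1, Hnrnpr, Lsm6, Prpf3, Prpf4b and Snrpa, and in the SRCAP list at 3, Hnrnpa1, Hnrnpf and Srsf10. How often coding genes in general had more than 1 is not given.

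**Figure D4:**
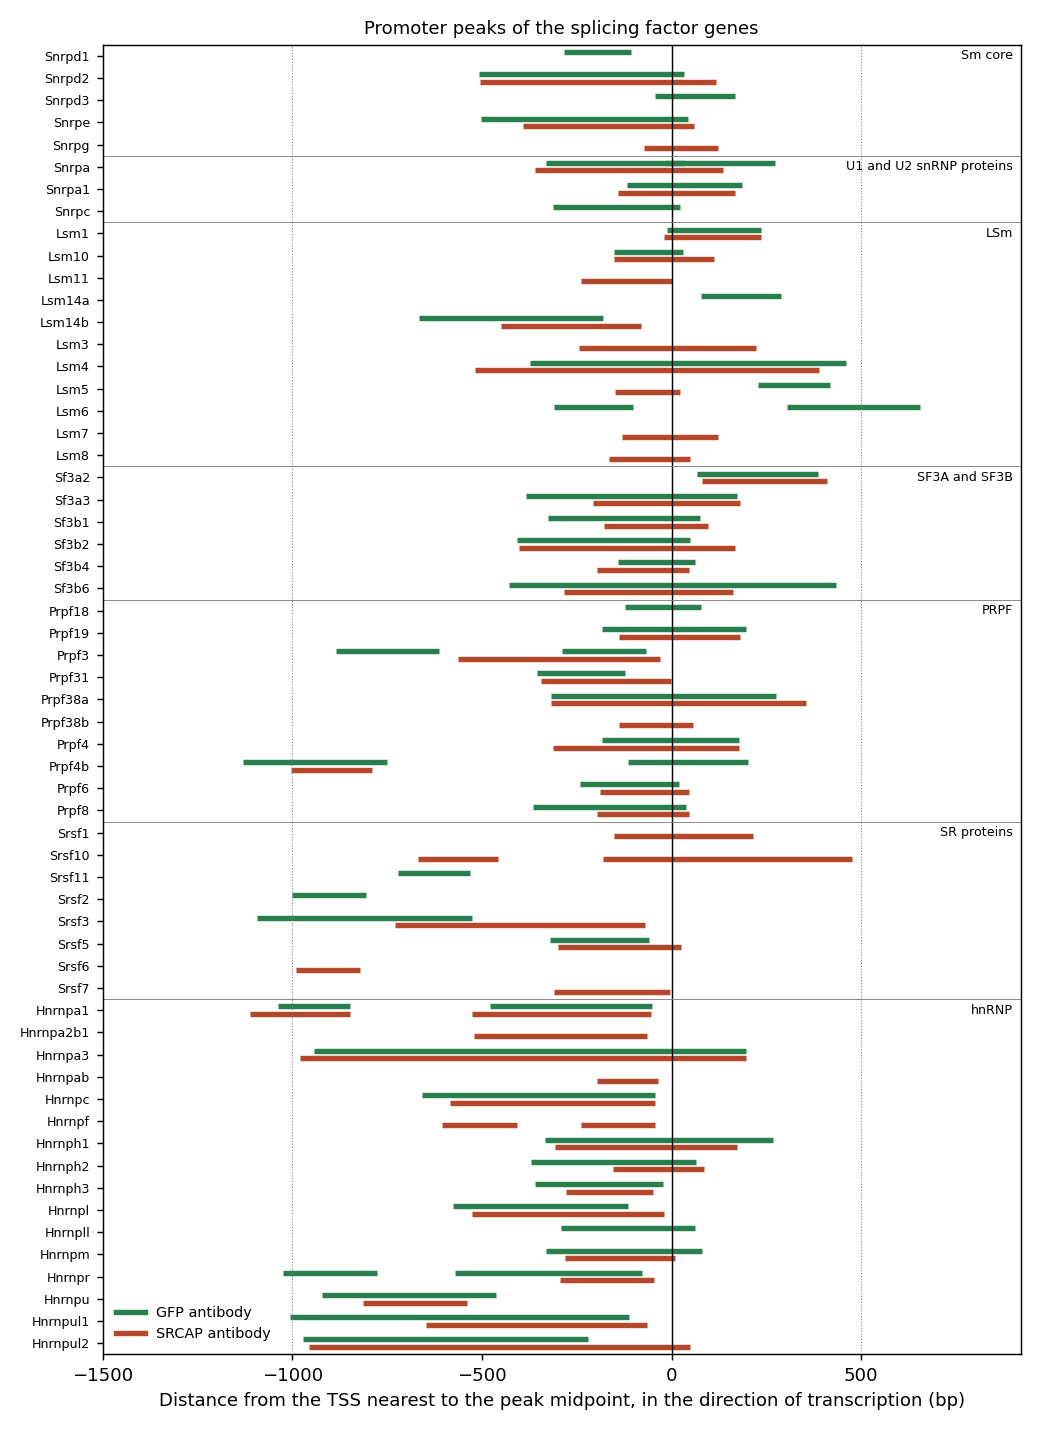
Promoter peaks of the splicing factor genes that had one, except 1 gene that is not shown (rows, grouped by family), drawn as bars from start to end against the distance in bp from the TSS nearest to the midpoint (x axis), with dotted lines at 1000 bp upstream and 500 bp downstream. Most bars lie from the TSS to 500 bp upstream, and the bars of the 2 antibodies share much of their length.

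Splicing factor genes often shared their promoter with another coding gene. For 24 of 78, or 30.8% (21.6 to 41.7), the TSS of a coding gene on the other strand lay within 1000 bp upstream, beside 9.11% of all coding genes. Among the splicing factor genes the counts with and without such a neighbour were close. A GFP peak was present at 62.5% (42.7 to 78.8) of those 24 and 59.3% (46.0 to 71.3) of the other 54, and a SRCAP peak at 66.7% and 64.8%. Among all coding genes the shares were 63.3% with and 32.2% without such a neighbour in the GFP list. In the SRCAP list they were 64.2% and 32.8%. The splicing factor genes without a neighbour thus stood above coding genes of that kind, in a comparison not limited to CpG-rich genes. CpG-rich were 93.6% of splicing factor genes and 49.8% of all coding genes.

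At 18 splicing factor genes a promoter peak also lay in the promoter of another coding gene, at 14 genes in the GFP list and at 16 in that for SRCAP. The matching share of all coding genes is not given, so these counts only describe the splicing factor genes. Among the pairs were Hnrnpa1 with Cbx5, Hnrnpa2b1 with Cbx3, Hnrnph2 with Gla, Hnrnph3 with Pbld2, Hnrnpul2 with Ttc9c, Lsm1 with Bag4, Lsm3 with Xpc, Lsm7 with Sppl2b, Prpf31 with Tfpt, Prpf38a with Orc1, Prpf4 with Cdc26, Sf3a2 with Plekhj1, Snrpa with BC024978, Snrpd2 with Qpctl, Snrpd3 with Gucd1, Srsf2 with Mfsd11 and Srsf7 with Ttc39d. Such a peak cannot be assigned to either gene.

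By chromosome the counts of splicing factor genes were uneven. On chromosome 6 all 6 genes, Hnrnpa2b1, Hnrnpf, Lsm3, Lsm5, Lsm8 and Snrpg, were in the SRCAP list and only Lsm5 in the GFP list, where all coding genes of that chromosome stood at 32.9% and 30.1%. On chromosome 5 none of the 3 genes, Hnrnpd, Hnrnpdl and Srsf9, was in either list, beside 36.6% and 40.3% of its coding genes in the GFP and SRCAP lists. Chromosome 7 held 4 of the 12 leading genes, Hnrnpl, Snrpd2, Hnrnpul1 and Prpf31. These patterns were noticed after the values were seen and rest on few genes.

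Of the 18 genes in neither list 15 were CpG-rich. Of the 37 genes with overlapping peaks 35 were, and so were all 9 of the GFP list alone and all 13 of the SRCAP list alone. Among all coding genes 49.8% were CpG-rich, and of the 5931 coding genes in both lists 4461 were. The matching count for coding genes in neither list is not given. The median CpG ratio was 0.962 for the splicing factor genes in neither list and 0.873 for those with overlapping peaks. It was 0.87 for the GFP list alone and 0.993 for the SRCAP list alone. For 8 of the 18 the nearest peak of either list lay under 5000 bp from a TSS. Lsm2 and Sf3b3 had a SRCAP peak just outside the window, at 1046 and 1078 bp upstream, with scores of 49 and 13, and Prpf40b a GFP peak at 1655 bp downstream with a score of 40. For 7 the nearest peak lay over 10000 bp away, namely Srsf4, Hnrnpa0, Hnrnpd, Prpf39, Snrpb, Snrpf and Snrpb2.

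For comparison with the sequences of the leading genes, the 160 bases upstream of the main TSS are given for the 2 genes in neither list with the highest CpG ratios among those free of annotated exons there, on the strand of the gene and with motif words in capitals as before.

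Hnrnpa0, chr13:58128557-58128716, minus strand: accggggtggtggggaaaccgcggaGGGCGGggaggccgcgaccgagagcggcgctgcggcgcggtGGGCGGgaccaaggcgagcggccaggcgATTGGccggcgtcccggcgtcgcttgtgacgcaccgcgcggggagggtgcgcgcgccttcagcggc
Prpf39, chr12:65036173-65036332, plus strand: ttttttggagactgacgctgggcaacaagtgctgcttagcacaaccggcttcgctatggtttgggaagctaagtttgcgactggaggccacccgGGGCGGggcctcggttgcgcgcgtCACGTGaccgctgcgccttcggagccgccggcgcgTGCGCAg

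Hnrnpa0 holds 1 NFY word and 2 SP/KLF words there, and Prpf39 an SP/KLF, an E-box and an NRF1 word. The NFY, SP/KLF and NRF1 words also stand in the stretches of the leading genes.

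The words of 11 promoter-binding factors were counted on both strands in 300 bp, from 250 bp upstream to 50 bp downstream of the main TSS. The NFY word CCAAT was present at 40 of 78 splicing factor genes, or 51.3% (40.4 to 62.1), beside 38.6% of all and 37.4% of CpG-rich coding genes. It was present at 60.5% (44.7 to 74.4) of the genes in both lists, 40.9% (23.3 to 61.3) of those in 1 list and 44.4% (24.6 to 66.3) of those in neither, with intervals that overlap. Of the 12 leading genes 9 had it, the exceptions being Lsm4, Sf3a2 and Srsf5. In the sequences above it appears as CCAAT in Hnrnpl and Hnrnpul1 and as its reverse complement ATTGG in Prpf8, Snrpd2 and Lsm10. The marked words of Hnrnpl and Snrpd2 lie more than 250 bp upstream, outside the counted window. These 2 genes were counted for other copies inside it.

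The NRF1 word TGCGCA, which reads the same on both strands, was present at 26.9% (18.3 to 37.7) of splicing factor genes, beside 10.0% of all and 16.2% of CpG-rich genes. Among the leading genes it was at Prpf8, Lsm4 and Hnrnpul2. The SP/KLF word GGGCGG was at 70.5% (59.6 to 79.5), beside 45.4% and 73.7%. The ETS word CCGGAAGT was at 12.8% (7.12 to 22.0), beside 5.02% and 8.81%, and among the leading genes only Srsf5 had it.

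The E2F word GGCGGGAA was at 10.3% (5.29 to 19.0), beside 2.96% and 4.93%. It overlaps the SP/KLF word where a G stands before it, as in the stretch of Hnrnpul1. The BANP word CTCGCGAG was at 5.13% (2.01 to 12.5), beside 1.20% and 2.27%, and the TATA word TATAAA at 11.5% (6.19 to 20.5), beside 12.6% and 5.51%. The E-box word CACGTG was at 10.3%, beside 7.72% and 11.2%, the ZNF143 word ACTACAA at 5.13%, beside 3.77% and 3.92%, the YY1 word AAGATGGCG at 3.85%, beside 1.86% and 3.45%, and the CRE word TGACGTCA at 2.56%, beside 2.48% and 3.80%. Against CpG-rich genes, the intervals for NFY, NRF1, E2F and TATA lie above the background and those for the other 7 words include it. All 78 splicing factor genes were counted there, with the 5 that are not CpG-rich. Among these 5, Sf3b5 has the TATA word at its GENCODE start. The TATA word was counted anywhere in the 300 bp, with first letters from -173 bp at Lsm12 to 14 bp at Srsf3. At Hnrnpab and Srsf2 it began at -29 bp from the main TSS. For E2F and TATA the lower limits of 5.29 and 6.19 are close to 4.93 and 5.51. The intervals were not adjusted for the number of words. A match is a stretch of letters, and binding of these factors was not measured.

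**Figure D5:**
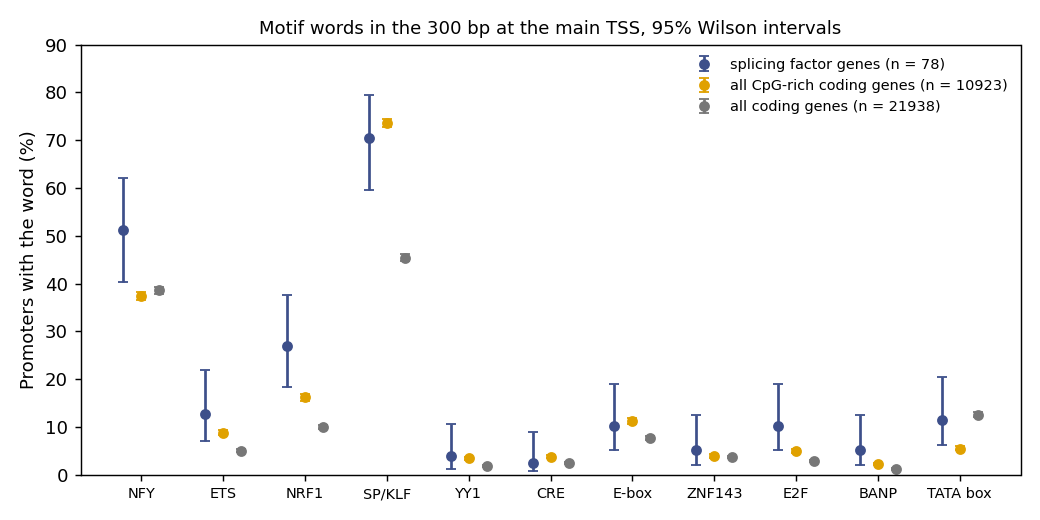
Percentage of genes (y axis) with each motif word (x axis) in the 300 bp at the main TSS, for splicing factor genes, all CpG-rich coding genes and all coding genes, with 95% Wilson intervals as bars. The NFY, NRF1, E2F and TATA words are at 51.3%, 26.9%, 10.3% and 11.5% of splicing factor genes, beside 37.4%, 16.2%, 4.93% and 5.51% of CpG-rich genes.

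Away from promoters, peaks inside splicing factor genes were less frequent than inside coding genes in general. The GFP list held 8 in 7 genes, or 8.97% (4.42 to 17.4) of the 78, beside 25.3% of all coding genes. The SRCAP list held 7 in 6 genes, or 7.69% (3.57 to 15.8), beside 25.0%. Both intervals lie below the share of all coding genes, whose median length of 17403 bp was above the 13772 bp of the splicing factor genes, and the part of gene length was not tested. At 4 of the GFP peaks a SRCAP peak overlapped. These were 2 in Hnrnpa3, 1 in Hnrnpr and the 1 in Sf3b5. The Sf3b5 peaks lie at the RefSeq start of the gene, so they are away from a promoter only with the GENCODE start. The peaks in Hnrnpr lay 6277 and 6188 bp from its nearest TSS with scores of 131 and 74, beside promoter scores of 29 and 64.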

How the data were processed

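CUT&RUN peaks were analysed from 2 libraries of SYAT mESCs, 1 per antibody, grouped by the antibody in their titles. The study's methods name the SRCAP antibody for CUT&RUN, so only the labels give the assay of the GFP library. The files the authors deposited are 1 list for each library, with 28718 GFP and 28167 SRCAP peaks and a whole-number score per peak of at least 13. What the score measures was not stated. The submitters' processing notes name STAR, Picard, MACS2 and the builds mm10 and dm6, with no processing given for CUT&RUN in particular and no control named. The study's reporting summary describes MACS2 calling against an input in its ChIP-seq section, and whether these lists were called that way was not stated. The choice of control decides which regions with many reads are listed. All peak ends lay within GRCm38 (mm10) chromosomes. The lists hold no read counts, so depth is unknown.

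Members and gene lists were chosen with earlier results of these data known. Peaks were placed at their midpoints and assigned to promoter windows with Python 3.11.15, numpy 2.4.6 and pandas 2.3.3. The windows ran from 1000 bp upstream to 500 bp downstream of the transcript starts of protein-coding genes. These starts were taken from GENCODE vM21, which holds 141767 transcripts in all. The assignment was tested on simulated data. Peaks overlapped when they shared at least 1 bp. Intervals are 95% Wilson intervals. No p-value was computed, since there was 1 library per antibody. CpG content, motif words and sequences were read from the RefSeq copy of GRCm38, without a window for 13 mitochondrial genes. Genes named with values were the 12 with the highest mean score percentile over both lists, the highest and lowest of each family, those in 1 list only, and, by name, those in neither list, with several peaks or with a peak shared with another coding promoter. Values of further members are given for completeness. Values of 1 splicing factor gene and 1 other splicing gene are not reported here, and both are included in the counts.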

Additional observations from a re-analysis of the deposited data

How the results depend on the processing

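No paired analysis was possible because there was a single library for either antibody. The shares in the GFP list, the SRCAP list and both, the median midpoints and the CpG-rich share were recomputed under 32 combinations of result and alternative, and 29 moved by less than the interval or quartile range of the reported value. The 3 that moved kept only the higher-scoring part of each list, from its median score up, which by construction removes peaks: 38.5% of splicing factor genes then had a GFP peak, 39.7% a SRCAP peak and 28.2% one in both lists, beside 22.2%, 23.5% and 16.0% of all coding genes. With RefSeq starts, chosen after seeing the data, the shares were 59.0%, 64.1% and 48.7%, beside 34.7%, 35.3% and 26.7% of 20567 coding genes. There Sf3b5 was gained in both lists, Hnrnpa3 lost in both, Lsm14a lost in the GFP list and Srsf10 in the SRCAP list. On chromosome 8, which holds 4 of the splicing factor genes, 49.2% and 51.3% of all coding genes were listed. Without that chromosome the shares were 59.5%, 66.2% and 48.6%, beside 34.3%, 34.9% and 26.3% of 20911 coding genes. Depth limits what a missing peak can show, and no result has a replicate.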

Other observations

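Among the 117 other genes of the splicing machinery, genes with a high mean score percentile included Khsrp, for a KH-domain splicing regulator, at percentiles 99.4 and 99.4 in the GFP and SRCAP lists, Sugp1 at 98.2 and 96.9, Dhx38, for a helicase of the second catalytic step, at 93.8 and 97.8, and Snrnp25, for a protein of the minor spliceosome, at 90.6 and 98.7. They were picked for their rank after the values were seen, and Sugp1 and Dhx38 lie on chromosome 8.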
